A study of Mus musculus with 89 samples.

Results

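Fabp3, Eif4g3, Padi2 and Tmem150a are 4 genes whose RNA after loss of both Esrrb and Nr5a2 lay above the level that the separate losses would add up to in mouse embryonic stem cells (ESCs) grown in 2i/LIF. They were chosen by that departure from additivity in the 12 libraries of 2i/LIF, out of 54238 rows of the expression table, and were then followed in all 8 groups of state and medium. Because the 2i/LIF values chose the genes, these values are given as a description without a test. The 8 libraries of FCS/LIF were not used by the rule and were tested. The mean difference between media, a contrast other than that of the rule, was tested too. Its 2i/LIF side comes from the libraries that chose the genes. Levels are TPM, a share of all transcripts corrected for length, and changes are log2 ratios fitted to counts by edgeR with their standard errors (SE). Called genes are those with an adjusted p under 0.01 and more than a 1.5-fold change, and for interactions those with an adjusted p under 0.01.

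RNA-seq covered 20 libraries. In the EKOiE line the endogenous Esrrb alleles are inactive and Esrrb comes from a transgene induced by doxycycline (Dox). EKOiE cells kept in Dox at 1 µg/ml are the control (+E+N), and the same cells after 2 days without Dox are −E. EKOiE NrKO cells, a derivative in which exon 4 of Nr5a2 was disrupted on both alleles, are −N with Dox and −E−N after 2 days without Dox. All groups thus share the loss of endogenous Esrrb, and the control carries the transgene. The −N and −E−N cells descend from a derived clone, which the labels of the libraries do not name, so loss of Nr5a2 and clonal origin cannot be told apart. FCS/LIF (serum and LIF) had 2 replicates per state, and 2i/LIF (inhibitors of Mek and Gsk3, and LIF) had 3. Another 69 samples, of ChIP-seq, were not analysed here.

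Esrrb and Nr5a2 are orphan nuclear receptors that recognise closely similar DNA sequences and act on the network that keeps ESCs self-renewing. When factors can stand in for each other, removal of both may change a gene by more or by less than the separate removals added together on a log scale. That departure is the interaction, computed as the log2 change of −E−N minus those of −E and of −N, all against +E+N. The members have unrelated products. Fabp3 is a cytoplasmic carrier of long-chain fatty acids, best known from heart muscle. Eif4g3 is a scaffold of the eIF4F complex, which brings ribosomes to capped mRNAs. Padi2 converts arginine residues of proteins to citrulline, histones among its substrates. Tmem150a is a membrane protein linked to the Pi4ka complex, which makes phosphatidylinositol 4-phosphate at the plasma membrane.

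Libraries of FCS/LIF held 36514172 to 45443379 counts and those of 2i/LIF 26653035 to 32526534. Esrrb RNA followed the Dox labels. In FCS/LIF it was 206 ± 60.8 TPM (SD, n = 2) in +E+N and 39.5 ± 0.86 in −E. The −E−N libraries of FCS/LIF had 16.83 and 19.22 TPM. In 2i/LIF it was 237 ± 45.0 TPM (SD, n = 3) in +E+N, 123 ± 9.83 in −E and 43.2 ± 10.5 in −E−N. The Esrrb RNA counted was thus lower in the double loss than in −E in both media. Whether this took part in the interactions below was not tested. The Nr5a2 row counts the whole gene and does not check a disruption of exon 4, and in 2i/LIF it read 20.2 ± 1.82 TPM in −N beside 21.8 ± 2.43 in +E+N (SD, n = 3). The identity of the cells as ESCs was checked on 8 pluripotency genes. Each of the 8 had a mean of at least 1 TPM in every group, and their sum ran from 1287 to 2782 TPM over the 20 libraries.

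In mm10, with GENCODE vM21 annotation, 3 of the members lie on chromosome 4 and all 4 are on the plus strand. Fabp3 (ENSMUSG00000028773) spans 130308595 to 130315463 with 4 exons and 133 codons. Eif4g3 (ENSMUSG00000028760) spans 137993022 to 138208508, 7.68 Mb further along, and has 15 annotated transcripts. Padi2 (ENSMUSG00000028927) spans 140906344 to 140952586, another 2.7 Mb along. Tmem150a (ENSMUSG00000055912) lies on chromosome 6 from 72355447 to 72359762. Of the 14355 genes tested in 2i/LIF, 941 (6.56%) lie on chromosome 4. Fabp3 overlaps Zcchc17 on the opposite strand by 81 bp, and Tmem150a overlaps Rnf181 by 49 bp. The strand setting of the counting is not given in the sources used here, so reads of these short overlaps may have been assigned to either gene. A pseudogene copy of Fabp3, Fabp3-ps1, had 0 to 14 counts per library.

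The 250 bases before the RefSeq start (GRCm38.p6) of each member are given because they were searched, with the first 50 bases after it. The search was for the sequences, named below, that Esrrb and Nr5a2 are known to recognise. The GENCODE span of each gene begins before its RefSeq start. The end of each window thus lies inside the span, and for Eif4g3 all of it does. Eif4g3 has 2 RefSeq windows, of which the first listed is shown. CpG pairs are in capitals.
Fabp3, chr4:130308488-130308737, plus strand: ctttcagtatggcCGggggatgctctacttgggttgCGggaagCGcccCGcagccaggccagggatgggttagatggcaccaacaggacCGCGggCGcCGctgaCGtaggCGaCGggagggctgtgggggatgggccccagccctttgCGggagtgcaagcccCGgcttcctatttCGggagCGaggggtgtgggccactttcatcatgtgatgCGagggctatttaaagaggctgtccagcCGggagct
Eif4g3, chr4:137993205-137993454, plus strand: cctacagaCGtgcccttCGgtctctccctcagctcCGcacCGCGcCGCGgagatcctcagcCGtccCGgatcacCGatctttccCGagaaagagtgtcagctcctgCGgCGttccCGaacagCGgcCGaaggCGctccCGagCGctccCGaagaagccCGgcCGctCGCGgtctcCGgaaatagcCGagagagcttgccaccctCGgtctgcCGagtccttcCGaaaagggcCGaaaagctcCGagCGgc
Padi2, chr4:140906110-140906359, plus strand: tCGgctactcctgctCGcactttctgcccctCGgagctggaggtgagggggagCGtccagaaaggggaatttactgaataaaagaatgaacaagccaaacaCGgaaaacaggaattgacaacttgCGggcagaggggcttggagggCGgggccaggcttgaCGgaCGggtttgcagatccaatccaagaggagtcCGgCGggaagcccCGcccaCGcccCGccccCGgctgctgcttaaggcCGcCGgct
Tmem150a, chr6:72355233-72355482, plus strand: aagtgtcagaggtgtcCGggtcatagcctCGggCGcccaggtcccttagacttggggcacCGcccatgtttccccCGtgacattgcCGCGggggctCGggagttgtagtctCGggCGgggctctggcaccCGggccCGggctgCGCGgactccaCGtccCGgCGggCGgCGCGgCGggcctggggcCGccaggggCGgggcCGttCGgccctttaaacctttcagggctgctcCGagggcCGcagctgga
All 4 windows were richer in CpG than most. They held 17, 32, 17 and 27 CpG pairs in the order given, against a median of 6 over 32851 RefSeq promoter windows, and 64.8%, 66.8%, 61.6% and 72.8% G or C, against a median of 52.4%. A search on both strands for TCAAGGTCA and TCAAGGCCA, the forms of the extended half-site that Esrrb and Nr5a2 are known to recognise, found 0 matches in the 4 members over these 250 bases and the 50 after the start. Of all 32851 windows cut in that way, 1.01% held a match.

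Within 10 kb on each side of the start the members differed. Fabp3 had 4 matches, Eif4g3 3, Padi2 2 and Tmem150a 0, where 74.7% of 27025 genes had at least 1. Of these genes 47.9% had 2 or more and 27.6% had 3 or more. The matches to TCAAGGTCA are shown first. Fabp3 held 2 of them, at 1212 and 1893 bases before its start, and 12.2% of genes have 2 or more anywhere in the 20 kb. The share of genes with 2 so near the start was not counted. The nearer match of Padi2, to TCAAGGCCA, follows. Capitals mark the match, and each sequence is read on the strand named.
Fabp3, chr4:130307522-130307530, plus strand: tttagtTCAAGGTCAacccct
Fabp3, chr4:130306841-130306849, minus strand: tctgatTCAAGGTCAcaggct
Eif4g3, chr4:138000354-138000362, minus strand: tgggagTCAAGGTCAccggga
Padi2, chr4:140899703-140899711, plus strand: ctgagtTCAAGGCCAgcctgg
All 6 matches to TCAAGGCCA near the members lie in bases that RefSeq masks as repeats, and the 3 matches to TCAAGGTCA do not. A match is a description of the letters and not evidence of binding.

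Fabp3 had the largest departure of the 4 in 2i/LIF. Its level was 101, 76.8 and 103 TPM in the +E+N replicates and fell to 8.21, 16.9 and 18.1 TPM in −E. In −N it was 153, 125 and 147 TPM, and in −E−N it was 166, 150 and 202 TPM. Every −E library lay below every +E+N library, every −E−N library lay above every +E+N library, and −E−N overlapped −N. Withdrawal of Esrrb thus went with a change of −2.69 ± 0.22 (log2, SE) while Nr5a2 was intact and of 0.28 ± 0.19 in NrKO cells. The sum of the single changes would have put the double loss at 21.8 TPM, against a mean of 172 TPM measured, an interaction of 2.98 ± 0.29 (log2, SE).

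In Eif4g3 the single losses in 2i/LIF pointed in opposite directions. The gene was low in +E+N, at 1.67, 2.14 and 2.74 TPM, and lower in −E, at 0.65, 1.22 and 1.07 TPM. It rose to 4.70, 6.67 and 5.89 TPM in −N and to 13.5, 12.3 and 14.6 TPM in −E−N. None of these groups overlapped. The change after Esrrb loss was −0.96 ± 0.18 with Nr5a2 intact and 1.18 ± 0.16 in NrKO cells (log2, SE), so the direction turned with the state of Nr5a2. The sum of the single losses corresponds to 3.15 TPM, the double loss measured 13.5 TPM on average, and the interaction was 2.15 ± 0.25 (log2, SE).

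Padi2 was highest in the control of 2i/LIF and above additivity without exceeding it. It had 5.26, 5.82 and 5.72 TPM in +E+N, 0.46, 0.90 and 0.86 in −E, and 3.40, 3.63 and 3.91 in −N. The double loss had 1.77, 1.63 and 1.74 TPM, below every −N library and above every −E library. Esrrb loss went with −2.90 ± 0.17 with Nr5a2 intact and −1.10 ± 0.16 in NrKO cells (log2, SE). The direction was thus kept and the size was smaller. The sum of the single losses would give 0.49 TPM, the mean of the double loss was 1.71 TPM, and the interaction was 1.80 ± 0.23 (log2, SE). The −E libraries held only 56 to 100 counts of Padi2, so this value rests on the shallowest counts of the 4 genes.

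Tmem150a changed least of the 4 after Esrrb loss in 2i/LIF. Its level was 8.49, 8.27 and 11.4 TPM in +E+N, 6.47, 6.45 and 7.14 in −E, and 15.9, 14.3 and 14.2 in −N. In −E−N it reached 31.3, 29.6 and 40.6 TPM, above every other library of the medium. Esrrb loss went with −0.46 ± 0.15 with Nr5a2 intact and with 1.18 ± 0.14 in NrKO cells (log2, SE). The sum of the single losses corresponds to 10.8 TPM, the mean of the double loss was 33.8 TPM, and the interaction was 1.64 ± 0.21 (log2, SE).

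**Figure D1:**
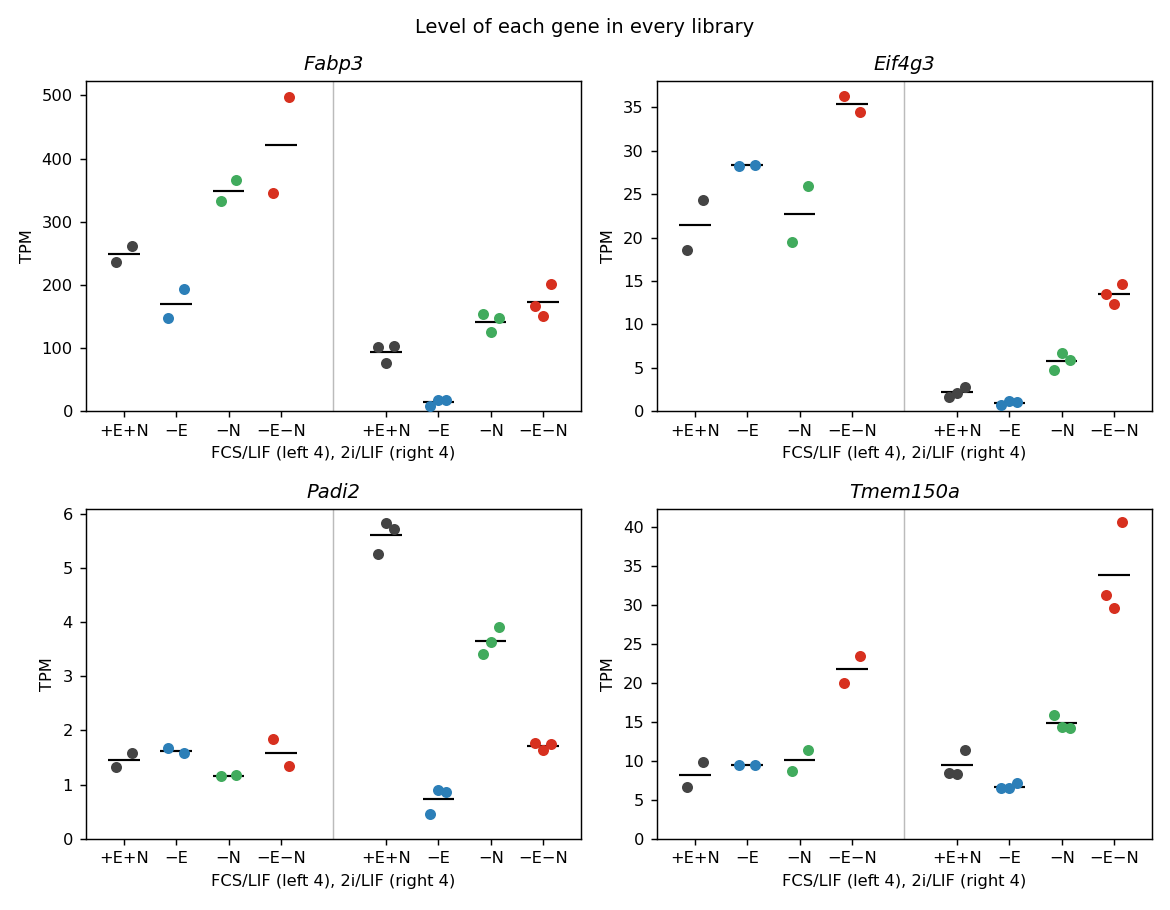
TPM of each gene (y axis, linear, from 0) in every library of the 4 states in FCS/LIF (left of each panel) and 2i/LIF (right). Points are libraries and horizontal lines are group means. In 2i/LIF the −E points of every gene lie lowest, and the −E−N points lie above all others for Eif4g3 and Tmem150a, overlap the −N points for Fabp3, and lie at 1.63 to 1.77 TPM, under the +E+N and −N points, for Padi2.

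The departure thus took 3 forms. In Fabp3 a large fall after Esrrb loss was not seen in NrKO cells, and in Padi2 it was smaller there. In Eif4g3 a fall became a rise, and in Tmem150a a small fall became a rise. In each gene −E was the lowest state of 2i/LIF, and in each of the 3 same-numbered sets of libraries the interaction was above 0, between 2.48 and 3.58 for Fabp3, 1.63 and 2.70 for Eif4g3, 1.54 and 2.44 for Padi2, and 1.22 and 2.19 for Tmem150a (log2). The genes were chosen by this interaction in these libraries, so its sign in each set is a description and not separate support. The interaction passed an adjusted p of 0.01 in edgeR's quasi-likelihood test for 44 of 14355 genes, or 0.307%, with 14 of them above 0. The 4 members are those with the lowest adjusted p of these 14. Just outside the set by that order were Krt8, with an interaction of 2.92 ± 0.38 (log2, SE), and Fst, with 2.08 ± 0.29. By size alone Ntrk3 was first, at 3.28 ± 0.50, and Tmem150a eighth.

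In FCS/LIF, where Esrrb is more strictly needed by ESCs, the question was whether the genes depart from additivity too. The interaction was above 0 in all 4 by estimate, beside 54.4% of the 15636 genes tested, and passed the test in 0 of the 4. The background is 5 genes, or 0.032%, called at an adjusted p under 0.01, with all 5 below 0, and 1384 genes (8.9%) at an unadjusted p under 0.05. Tmem150a had 0.91 ± 0.25 (log2, SE, adjusted p = 0.318 by edgeR, rank 247 from the highest) and Fabp3 0.84 ± 0.24 (adjusted p = 0.328, rank 331). Both had an unadjusted p under 0.05, at 0.00502 and 0.00644, and DESeq2 also called 0 of the 4. Padi2 had 0.30 ± 0.23 (adjusted p = 0.742) and Eif4g3 0.29 ± 0.19 (adjusted p = 0.693). Without the filter on low counts the test called Fabp3 (0.83 ± 0.10, adjusted p = 2.85e-12) and Tmem150a (0.90 ± 0.19, adjusted p = 0.000414). The estimates hardly moved and the SEs were smaller. The share of all genes called in that fit is not given separately, so these 2 calls have no background of their own. The range of calls over the alternatives stands at the end. Whether the interactions differ between media was not tested, because the 2i/LIF values chose the genes.

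**Figure D2:**
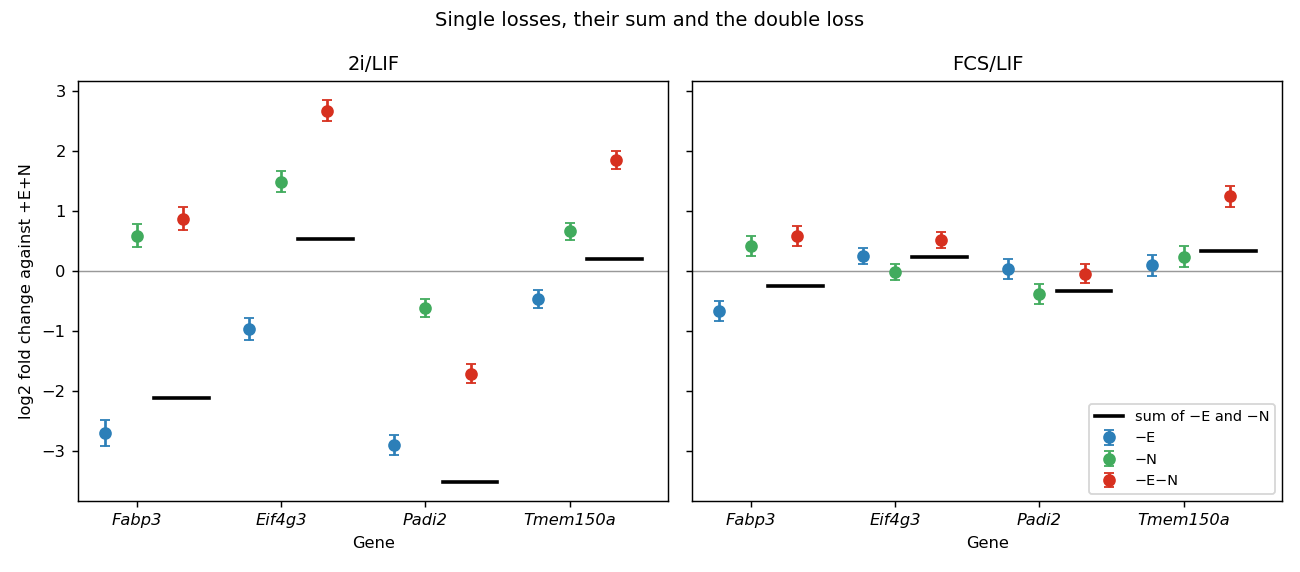
Log2 fold change against +E+N (y axis) of −E, −N and −E−N for each gene (x axis), in 2i/LIF (left) and FCS/LIF (right), with error bars of 1 SE from the edgeR fit and a black bar at the sum of the −E and −N changes. The −E−N points lie above the bar in every case, by 1.64 to 2.98 in 2i/LIF and by 0.29 to 0.91 in FCS/LIF.

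In the edgeR fit of all FCS/LIF libraries, filtered and without a block, Tmem150a was the only member called after double loss against +E+N. In +E+N it had 6.64 and 9.78 TPM, and both −E libraries had 9.46. Those of −N had 8.70 and 11.4 TPM, and those of −E−N 19.9 and 23.5. The −E−N libraries lay above all others of the medium. Against +E+N the change was 1.25 ± 0.17 (log2, SE), with an adjusted p of 0.000516 by edgeR, and 18.8% of the genes tested were called in this comparison. Against −N it was 1.01 ± 0.17 (adjusted p = 0.00282 by edgeR, 10.1% of genes called), and against −E it was 1.15 ± 0.17 (adjusted p = 0.00288, 5.05% called). Neither single loss passed the test, with 0.10 ± 0.18 in −E (adjusted p = 0.742) and 0.24 ± 0.18 in −N (adjusted p = 0.561). The background in these was 5.76% of genes called in −E and 0.173% in −N. The call against +E+N remained without any 1 library. The call against −N was lost without −N replicate 1 (0.85, adjusted p = 0.0162) or −E−N replicate 2 (0.85, adjusted p = 0.0314), and the call against −E without −E replicate 1 (1.13, adjusted p = 0.0373), −E replicate 2 (1.13, adjusted p = 0.025) or −E−N replicate 2 (1.00, adjusted p = 0.037).

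Fabp3 kept in FCS/LIF the order of states seen in 2i/LIF. The +E+N libraries had 237 and 261 TPM, and those of −E 148 and 193. Without Nr5a2 the level was 332 and 366 TPM with Dox (−N), then 346 and 498 without it (−E−N). The −E libraries lay below and the −N and −E−N libraries above those of +E+N, while −N and −E−N overlapped. Between −E and −E−N the gene rose by 1.26 ± 0.17 (log2, SE, adjusted p = 0.00176 by edgeR). Fitted with the filter on low counts and without a block, it was not called against +E+N in any state. The changes were −0.67 ± 0.17 in −E (adjusted p = 0.025), 0.42 ± 0.17 in −N (adjusted p = 0.251) and 0.59 ± 0.17 in −E−N (adjusted p = 0.0176). Without that filter −E and −E−N were called (−0.67 and 0.59, adjusted p = 2.46e-17 and 3.87e-14), at an SE of 0.07 each. The estimates hardly moved, and the share of all genes called in that fit is not given separately. With the replicate number as a block, −E was called (−0.68 ± 0.10, adjusted p = 0.000977). The change in −E was also called without −E−N replicate 1 (−0.66, adjusted p = 0.00937) or −E−N replicate 2 (−0.66, adjusted p = 0.00927), and that in −E−N without −E−N replicate 1 (0.82, adjusted p = 0.00321). The replicates of −E−N stood far apart, and the rise over −E was not called without −E−N replicate 2 (0.95, adjusted p = 0.0131) or −E replicate 1 (1.06, adjusted p = 0.0262).

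Eif4g3 had 18.6 and 24.3 TPM in the control of FCS/LIF. After Esrrb loss the libraries had 28.2 and 28.4 TPM, after Nr5a2 loss 19.5 and 25.97, and after loss of both 36.3 and 34.5. The −E−N libraries were highest, −E came next, and −N overlapped +E+N. No comparison passed both limits. The change in −E−N was 0.52 ± 0.13 against +E+N (log2, SE, adjusted p = 0.012 by edgeR) and 0.53 ± 0.13 against −N (adjusted p = 0.0155), and that in −E was 0.25 ± 0.13 (adjusted p = 0.231). The first was called without +E+N replicate 2 (0.67, adjusted p = 0.00671) and by limma on log2(TPM + 1) (0.71, adjusted p = 0.00798), and the second without −N replicate 2 (0.77, adjusted p = 0.00197). Every −E library of FCS/LIF was above both controls and every −E library of 2i/LIF below all 3 controls.

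Padi2 stayed low in FCS/LIF. The control libraries had 1.32 and 1.59 TPM, those of −E 1.67 and 1.58, those of −N 1.15 and 1.18, and those of −E−N 1.84 and 1.34. Apart from −N, which lay lowest, the states overlapped. The changes against +E+N were 0.04 ± 0.16 in −E (log2, SE, adjusted p = 0.893 by edgeR), −0.37 ± 0.16 in −N (adjusted p = 0.304) and −0.04 ± 0.16 in −E−N (adjusted p = 0.86). In −E, where the gene stood at its lowest in 2i/LIF, the change in FCS/LIF was within 1 SE of 0.

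The media separated the members further. Averaged over the 4 states, Eif4g3 was lower in 2i/LIF than in FCS/LIF by 6.93-fold (log2 change −2.79 ± 0.09 (SE), adjusted p = 9.09e-15 by edgeR), and Fabp3 was lower by 3.28-fold (−1.71 ± 0.10, adjusted p = 7.94e-11). Padi2 was higher by 1.66-fold (0.73 ± 0.09, adjusted p = 7.29e-07). Tmem150a was higher by 1.28-fold (0.35 ± 0.09, adjusted p = 0.00133), under the fold limit of 1.5. In this comparison 41.1% of genes were called, beside 3 of the 4 members. Medium and culture batch cannot be told apart, and the 2i/LIF side of this difference comes from the libraries that chose the genes. Over the 8 groups, Fabp3 ran from a mean of 422 TPM in −E−N of FCS/LIF down to 14.4 TPM in −E of 2i/LIF. Eif4g3 ran from 35.4 to 0.98 TPM between the same groups, and all 4 groups of FCS/LIF lay above all 4 of 2i/LIF. Padi2 was highest in +E+N of 2i/LIF (5.60 TPM) and Tmem150a in −E−N of 2i/LIF (33.8 TPM). All members were lowest in −E of 2i/LIF. In the order of group means, neighbours overlapped in range for 3 of 7 steps in Fabp3, 1 in Eif4g3, 3 in Padi2 and 4 in Tmem150a.

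The closest relatives of the members were not called above additivity in either medium. Among 9 other fatty acid binding protein genes, Fabp5 was the single one that passed the filter on low counts. In 2i/LIF it fell in −E by 1.80 ± 0.34 on the log2 scale (adjusted p = 0.00902 by edgeR, where 1.55% of genes were called). It was at −0.98 ± 0.33 in −E−N (adjusted p = 0.0312) and its interaction was 0.97 ± 0.47 (adjusted p = 0.397). Eif4g1 and Eif4g2, the other scaffolds of the family, were much more abundant, at a mean of 263 to 402 TPM and 374 to 448 TPM over the 8 groups. Their interactions in 2i/LIF were −0.06 ± 0.09 (adjusted p = 0.817) and 0.02 ± 0.10 (adjusted p = 0.964). Eif4e, which binds the cap, had −0.16 ± 0.10 (adjusted p = 0.559). Padi4, on the same chromosome as Padi2, fell after double loss in both media, by 1.70 ± 0.37 in FCS/LIF (adjusted p = 0.00539) and by 2.35 ± 0.27 in 2i/LIF on the log2 scale (adjusted p = 2.82e-05, where 18.6% of genes were called). Its interaction in 2i/LIF was −0.59 ± 0.37 (adjusted p = 0.525). Padi3 was not called in −E, −N or −E−N of either medium. Tmem150c rose in −E−N of FCS/LIF by 1.92 ± 0.34 (log2, SE, adjusted p = 0.002) from 0.23 to 1.83 TPM, and it was under the filter in 2i/LIF. Tmem150b had at most 0.17 TPM in any library.

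**Figure D3:**
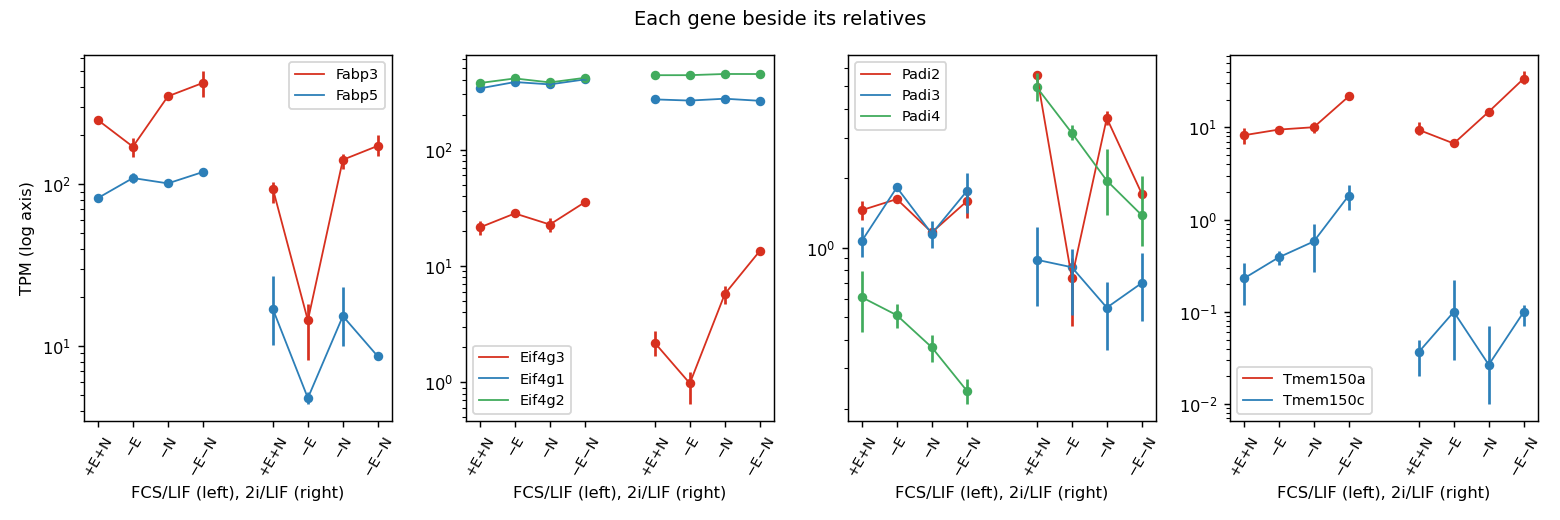
Mean TPM (y axis, log scale) of each member and of relatives in the 8 groups (x axis, FCS/LIF left and 2i/LIF right). Vertical lines run from the lowest to the highest library, with a library at 0 drawn at 0.01. Eif4g1 and Eif4g2 stay between 263 and 448 TPM where Eif4g3 runs from 0.98 to 35.4 TPM, and Fabp5 is lowest in −E of 2i/LIF, as Fabp3 is.

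The wider pathways were counted from lists that leave out the members. Of 22 genes of fatty acid uptake and oxidation tested, 5 rose and 3 fell in −E−N of FCS/LIF, where 18.8% of all genes were called, with a median of 0.27 beside 0.00 for all genes (log2). In 2i/LIF 4 rose and 5 fell, where 18.6% of all genes were called, with a median of −0.02 beside 0.01. The largest called change of the list in −E−N of both media was that of Pparg, a nuclear receptor for fatty acids. It rose by 2.15 ± 0.33 in FCS/LIF (log2, SE, adjusted p = 0.000808 by edgeR), from 1.31 and 1.58 TPM to 5.28 and 9.19. In 2i/LIF it was called in −N and in −E−N too (adjusted p = 0.000281 and 5.37e-06), at 0.57 to 0.67 and 1.16 to 1.63 TPM beside 0 to 0.03 in +E+N, and no fold is given against a control so near 0. In the single losses of FCS/LIF 1 rose and 1 fell in −E and 0 were called in −N, beside 5.76% and 0.173% of all genes called. In those of 2i/LIF 0 rose and 2 fell in −E and 2 rose and 0 fell in −N, beside 1.55% and 3.65%. Of the genes of eIF4F and its regulators, 1 of 19 rose and 0 fell in −E−N of FCS/LIF and 0 rose and 1 of 18 fell in 2i/LIF, with medians of −0.07 and 0.03, against the same 18.8% and 18.6% of all genes called. The gene that rose was Eif4e3, a cap-binding relative of Eif4e, by 1.55 ± 0.21 (log2, SE, adjusted p = 0.000411). Of 7 genes of the Pi4ka complex, Ttc7 rose in −E−N of FCS/LIF by 0.87 ± 0.18 (log2, SE, adjusted p = 0.00417) and 0 fell, with a median of 0.19, and in 2i/LIF 0 rose and 1 fell, with a median of 0.05, beside these shares again. No gene of these lists, nor of the relatives above, passed the test of the interaction in either medium. In edgeR that is 0 calls among the 54 tested with serum and the 52 tested in 2i/LIF, where unadjusted p was under 0.05 for 3 and 8. DESeq2 called 0 in FCS/LIF and 1 in 2i/LIF, Eif4ebp1, which binds Eif4e and lay below the sum.

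The surroundings of the members were compared to see whether whole regions moved. Of the genes tested in 2i/LIF within 500 kb, 12 lie near Fabp3, 12 near Eif4g3, 18 near Padi2 and 20 near Tmem150a. In edgeR's test of the interaction 0 of these 62 were called, with 12 at an unadjusted p under 0.05. DESeq2 called 3, Arhgef10l, Hspg2 and Rap1gap, of which Hspg2, near Eif4g3, lay above the sum. The median interactions around the members, in that order, were 0.04, −0.04, −0.09 and 0.04 (log2), beside 0.00 for all genes. The nearest tested genes on each side had −0.39 ± 0.64 (Serinc2) and 0.09 ± 0.15 (Zcchc17) for Fabp3, and −0.12 ± 0.26 (Ece1) and 0.24 ± 0.08 (Hp1bp3) for Eif4g3. For Padi2 they had 0.43 ± 0.50 (Padi3) and 0.01 ± 0.11 (Sdhb), and for Tmem150a 0.12 ± 0.13 (0610030E20Rik) and −0.01 ± 0.09 (Rnf181). Adjusted p values by edgeR for these 8 genes ran from 0.202 to 0.985. Zcchc17 and Rnf181 are the genes whose ends overlap those of Fabp3 and Tmem150a. After double loss itself, 9 of the 18 genes near Padi2 fell and 0 rose in 2i/LIF, with a median of −0.54 (log2) beside 0.01 for all genes and with Padi4 among them. Of all 14355 genes, 1372 fell and 1300 rose in this comparison (18.6% called).

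**Figure D4:**
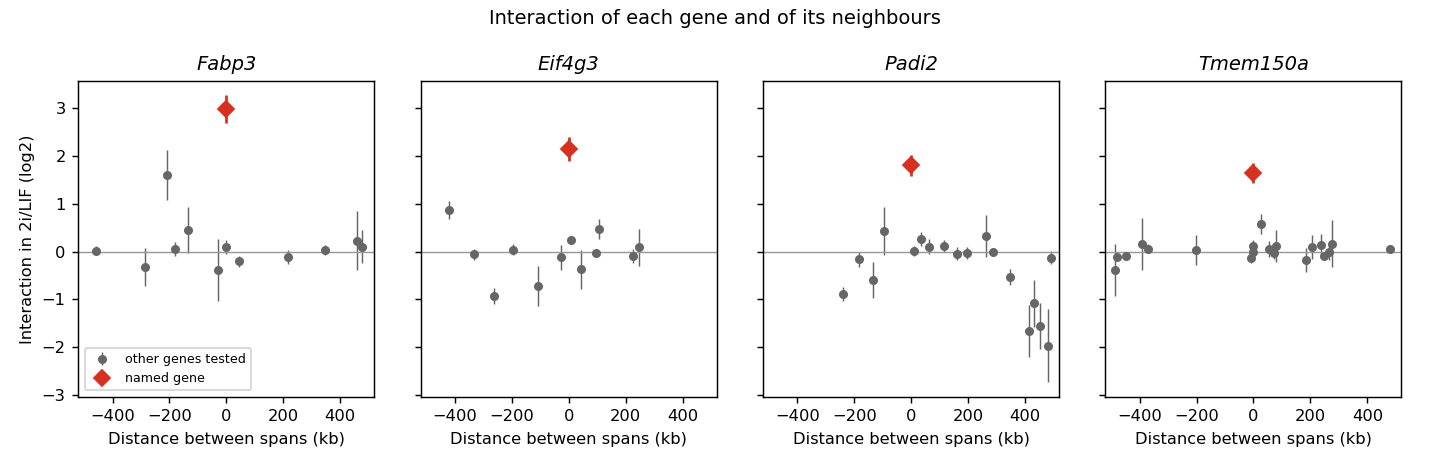
Interaction in 2i/LIF (y axis, log2, with bars of 1 SE) of each member (red diamond) and of the other genes tested within 500 kb (grey), by the distance between gene spans in kb (x axis, negative to the left). The members stand at 1.64 to 2.98, and the medians of their neighbours lie between −0.09 and 0.04.

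Over the 20 libraries, the genes whose log2(CPM + 1) followed each member most closely are given as a description, since the libraries share states and media. For Eif4g3 they were Fgfr2 (Pearson r = 0.987), Fam120b (0.983) and Krt8 (0.977). For Tmem150a they were Slc4a2 (0.96), Slc22a3 (0.957) and Gjb2 (0.938). For Fabp3 they were Cldn4 (0.934), Smad3 (0.929) and Nrp2 (0.906), and for Padi2 Rcn1 (0.913), Mppe1 (0.902) and Slc24a5 (0.862), each out of 16146 genes. Krt8 and Slc4a2 are also among the 14 genes above additivity in 2i/LIF. Among the members themselves r ran from −0.189 (Eif4g3 and Padi2) to 0.865 (Fabp3 and Eif4g3), so they do not form 1 group across media.

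Markers of other cell types moved with the double loss and are given beside it. In bulk RNA a change in the share of cells and a change of RNA per cell cannot be told apart. The summed level of 8 trophectoderm markers was 249 to 301 TPM in +E+N and 1167 to 1807 TPM in −E−N of FCS/LIF. In 2i/LIF it was 13.2 to 17.6 TPM in +E+N, 12.8 to 15.2 in −E, 66.5 to 72.2 in −N and 174 to 297 in −E−N. All 8 were called higher in −E−N of FCS/LIF, and in 2i/LIF 5 of 6 tested were called higher and 1 lower. Of all genes 18.8% and 18.6% were called in these comparisons. The 8 pluripotency genes were all called lower in −E−N of FCS/LIF and 6 of them in 2i/LIF. There Pou5f1 (−0.47 ± 0.13) and Utf1 (−1.36 ± 0.46) were lower by estimate (log2, SE) and not called. The sum of the 8 was 1287 to 1727 TPM in −E−N of 2i/LIF beside 2514 to 2782 in +E+N. The sum of 7 primitive endoderm markers was 10.7 to 15.2 TPM with both factors present, 23.1 to 24.2 after Esrrb loss and 24.76 to 26.99 after double loss in FCS/LIF, and 2.24 to 3.28 in +E+N and 6.24 to 8.31 in −E−N of 2i/LIF. That of 4 neural genes was 17.7 to 23.8 TPM, 41.4 to 43.4 and 46.1 to 47.5 in the same order, and 7.74 to 10.03 in +E+N and 9.93 to 11.6 in −E−N of 2i/LIF. The sum of 5 mesoderm genes was 1.70 to 2.22 TPM in +E+N and 5.61 to 6.86 in −E−N of FCS/LIF, and 5.43 to 6.15 and 5.26 to 11.3 in 2i/LIF. For 5 fibroblast genes it was 5.59 to 6.07 TPM in +E+N and 6.14 to 6.56 in −E−N of FCS/LIF, and 2.93 to 6.21 and 2.82 to 5.21 in 2i/LIF. Sums of the primitive endoderm list thus lay apart between +E+N and −E−N in both media, those of the neural, mesoderm and fibroblast lists in FCS/LIF and not in 2i/LIF. Within the lists the genes differed. In −E−N of FCS/LIF 1 of 7 primitive endoderm genes was called, Dab2 (mean 5.01 TPM in +E+N and 17.7 in −E−N), with a list median of −0.07 (log2). In 2i/LIF 2 of 5 tested were called higher and Gata4 lower. Of 4 neural genes in FCS/LIF, Nes (7.6 and 35.3 TPM) and Sox1 were called higher and Pax6 lower. The mesoderm list had 2 of 3 called higher there and the fibroblast list 4 of 5. In 2i/LIF each had 1 called higher and 1 lower. No marker of any list was at 0 in every library of a group. Their part in the changes of the 4 genes was not tested.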

How the data were processed

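RNA-seq of 20 libraries was used. Gene values come from the authors' RSEM runs over STAR alignments to mm10, made from a strand-specific, paired-end protocol (versions not given in the sources used here). The deposited estimated counts were whole numbers, with no normalization between libraries, and the deposited TPM were made by the authors with RSEM and are corrected for length and depth. Reads shared by near-identical genes are split by RSEM's estimate.

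Each medium was fitted apart with edgeR 4.0.16 in R 4.3.3 (TMM normalization, quasi-likelihood test, Benjamini-Hochberg adjustment), with 4 states in one fit. A gene entered the fit when all replicates of some state reached 20 counts (15636 genes for FCS/LIF, 14355 for 2i/LIF). The 4 members passed this filter in both media. The mean difference between media came from fitting the 8 groups of both media at once (16147 genes). Calls follow the limits of the study's methods, an adjusted p under 0.01 and a fold change over 1.5, with no fold limit for interactions. The study describes the replicates as independent experiments, and p-values are set against the spread between them. The fit has no block, so spread that same-numbered libraries share across states is part of it. In 2i/LIF all 12 libraries correlated best with their own number. Chi-square per degree of freedom between replicates was at least 4.28, so no library repeats another within sampling noise. Precision is limited by the spread between replicates and, where they are low, by counts. For the members counts ran from 56 to 8489 per library.

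The members and the gene lists were chosen with earlier results of these data known. Named were the members, their family genes, the called gene with the largest change in −E−N of FCS/LIF in the other lists, the nearest tested genes, the 3 genes with the highest Pearson correlation on log2(CPM + 1), and genes with the next largest interactions. The interaction fit was also run on simulated data, of which no settings or outcome are given here. Alternatives were DESeq2 1.42.0 (Wald test, no independent filtering), its size factors in edgeR, the low-count filter relaxed to 1 count in total, the replicate number as a block, limma 3.58.1 on log2 values of TPM with a pseudocount of 1 or of 0.1, all 20 libraries in one fit, and leaving out each library. Names, coordinates and exons come from GENCODE vM21, and promoters and genome sequence from RefSeq GRCm38.p6.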

Additional observations from a re-analysis of the deposited data

Results flagged for a closer look

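The following were picked out because every library moved one way in one medium and the opposite way in the other. The change of Eif4g3 after Esrrb loss was 0.25 ± 0.13 (log2, SE) in FCS/LIF against −0.96 ± 0.18 in 2i/LIF, a difference of 1.21. The change of Padi2 between −N and −E−N was 0.34 ± 0.17 in FCS/LIF against −1.10 ± 0.16 in 2i/LIF, a difference of 1.44. Neither difference was tested, since the 2i/LIF values chose the genes.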

How the results depend on the processing

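Over the 8 left-out libraries and 7 alternatives of FCS/LIF, the interaction was above 0 in all 15 fits for each gene, between 0.51 and 1.04 for Fabp3, 0.09 and 0.52 for Eif4g3, 0.04 and 0.46 for Padi2 and 0.65 and 1.12 for Tmem150a (log2). In 2i/LIF, over 19 fits, it was between 2.73 and 3.16, 1.79 and 2.32, 1.16 and 1.93, and 1.49 and 1.74 in that order. Without the filter on low counts, Fabp3 and Tmem150a were called for the interaction (0.83 and 0.90) and Fabp3 for −E (−0.67) and −E−N (0.59), and the block by replicate number called Fabp3 for −E (−0.68, adjusted p = 0.000977). The cause was not tested. On log2(TPM + 1) and log2(TPM + 0.1), Eif4g3 was called for −E−N (0.71 and 0.73). Values near 0 turned sign for −N of Eif4g3 (−0.018 as reported, then 0.078 and 0.081 on these scales and 0.0009 with all 20 libraries in one fit) and for −E−N of Padi2 (−0.040 as reported, then 0.073 and 0.11). The pseudocount of 1 shrinks changes of low genes by construction. With it, Eif4g3 in 2i/LIF had −0.68 in −E, 1.09 in −N, 2.20 in −E−N and 2.88 between −E and −E−N, Padi2 had −1.93, −0.51, −1.28 and 0.65 in that order, −0.78 between −N and −E−N, an interaction of 1.16 and a difference between media of 0.50, under the fold limit, and Tmem150a had 1.74 in −E−N (1.83 with all 20 libraries in one fit).

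Leaving out 1 library gave these ranges where a call or sign changed. For Fabp3 they were −0.86 to −0.48 in −E (called without either −E−N library, −0.66 each), 0.29 to 0.82 in −E−N (called without −E−N replicate 1), −0.15 to 0.38 between −N and −E−N (below 0 without −E−N replicate 2) and 0.95 to 1.48 between −E and −E−N. For Eif4g3 they were −0.25 to 0.18 in −N, 0.37 to 0.67 in −E−N (called without +E+N replicate 2) and 0.34 to 0.77 between −N and −E−N (called without −N replicate 2). For Padi2 they were −0.053 to 0.15 in −E, −0.27 to 0.15 in −E−N and −0.32 to 0.10 between −E and −E−N. For Tmem150a they were −0.11 to 0.36 in −E, 0.85 to 1.19 between −N and −E−N and 1.00 to 1.26 between −E and −E−N. In 2i/LIF values moved beyond 1 SD over ranges of 0.46 to 0.68 in −N of Fabp3, −1.09 to −0.79 in −E and 1.36 to 1.63 in −N of Eif4g3, and 1.69 to 1.99 in −E−N of Tmem150a. An arm left with 1 library is assumed to vary like the others.

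The replicate numbers are shared by the states, and the labels do not say what they mark. In 2i/LIF the deviations of same-numbered libraries correlated between 0.078 and 0.743, and all 12 libraries correlated best with their own number. FCS/LIF has 2 numbers. With the replicate number as a block the interactions in FCS/LIF were 0.83 (Fabp3, adjusted p = 0.0272), 0.29, 0.30 and 0.90 (Tmem150a, adjusted p = 0.0353). Of all genes, 40 were then called for it in place of 5, and 324 in place of 44 in 2i/LIF.

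Counts over all genes varied more than the members did. Over the 7 alternatives, calls of the interaction ran from 0 to 242 in FCS/LIF (reported: 5, DESeq2 63) and from 7 to 324 in 2i/LIF (reported: 44, DESeq2 303), those of −N from 7 to 548 (reported: 27) and from 309 to 1115 (reported: 524), and those of −E from 445 to 1631 (reported: 901) and from 136 to 596 (reported: 223). Between −E and −E−N of FCS/LIF they ran from 437 to 1571 (reported: 790), and between −N and −E−N from 920 to 2556 (reported: 1573). Leaving out 1 library took these as low as 0, 7, 5, 244, 314, 87, 95 and 677 in that order, and −E−N of FCS/LIF to 1819 (reported: 2934).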
